A study of Mus musculus with 4 samples.

Results

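The genes described here are the laminin chains and the integrin chains measured in mouse colonic organoid cultures. They were chosen by symbol, from the genes named Lama, Lamb or Lamc with a number and those named as an integrin alpha (Itga) or beta (Itgb) chain, and number 35 of the 30360 genes of the table: 10 laminin chains, 17 integrin alpha chains and 8 integrin beta chains. The cultures were organoids, which are epithelial structures grown in a gel, made from the distal colon of mice aged 16 weeks per the labels. RNA of single cells was counted in 4 groups, made of wildtype cultures and of cultures from Tnfr2-/- mice, which lack TNF receptor 2 in the whole body, each either left untreated or given tumor necrosis factor (TNF). TNF was added at 20 ng/ml on day 1 after passage 5 and kept until day 6, and dissociation followed on day 7, with removal of apoptotic cells. The labels do not say how many mice a culture came from. Each group was 1 library, so no difference between groups has a replicate check and no p-value is given.

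Laminins are the main adhesive proteins of the basement membrane, the sheet on which an epithelium sits. Each laminin is a trimer of an alpha, a beta and a gamma chain, and the chains are encoded by separate genes. Integrins are receptors made of an alpha and a beta chain that bind laminins, collagens or other matrix proteins and tie them to the cytoskeleton. In gut epithelium the integrin of Itga6 and Itgb4 anchors cells to basement membrane laminin, and fibroblasts under the epithelium add other laminin chains.

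The cell table held 6155 cells, of which 4172 were in 7 epithelial classes, 1948 in 4 mesenchymal classes and 35 in no class. The libraries held 980 to 2589 cells and 44547639 to 87228093 unique molecular identifiers (UMIs, 1 per captured RNA molecule). Tnfrsf1b, the gene of TNF receptor 2, stood at 9.76 and 13.97 CPM in untreated and TNF-treated wildtype and at 2.05 and 7.59 CPM in Tnfr2-/-. RNA was thus still counted in both Tnfr2-/- libraries, and as 3' tags may lie outside the deleted part, this does not check the labels. Mesenchymal cells were unevenly spread, with 1430 in wildtype untreated, 306 in wildtype TNF, 90 in Tnfr2-/- untreated and 122 in Tnfr2-/- TNF. By compartment label, 6 epithelial markers summed to 11391 to 14229 CPM in epithelium and 138 to 801 CPM in mesenchyme. The sums of 7 mesenchymal markers were 9202 to 15086 CPM in mesenchyme and 5.21 to 22.8 CPM in epithelium. The classes were made by clustering these same genes, so the sums describe the labels and do not check them. CPM here is a gene's UMIs divided by all UMIs of the same cells and scaled to 1000000. Markers of leukocytes, platelets, endothelium, glia and muscle summed to at most 14.2 CPM in either compartment. The leukocyte list includes Itgb2 and the platelet list Itga2b, which are also chains described here. Barcodes found in 2 libraries numbered 3. Bracketed ranges are 95% intervals for counting error, and the variation among mice or cultures is not in them.

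Of the 35 chains, 23 reached 20 CPM in at least 1 library of a compartment. The other 12 did not, and the highest of them stood at 6.92 CPM. They were Itga2b, the platelet chain, the leukocyte chains Itgae, Itgal, Itgam, Itgax, Itgb2 and Itgb7, and Itga7, Itga8, Itga9, Itga10 and Itga11. All 35 had at least 1 UMI in the cells with a class.

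The chains divided by compartment. A gene was counted as different where it was at least 2-fold higher in the same compartment in all 4 libraries, and was tested where it reached 20 CPM in 1 of the compartments in each library. Of 17 chains so tested, 6 were higher in epithelium, beside 10.4% of all 5868 genes tested, and 10 were higher in mesenchyme, beside 14.8%. The classes were made by clustering these same genes, so these differences describe the compartments and do not test them. The chain not counted on either side was Itgb1, the common partner of many alpha chains, at 187 to 435 CPM in epithelium and 574 to 1071 CPM in mesenchyme.

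**Figure D1:**
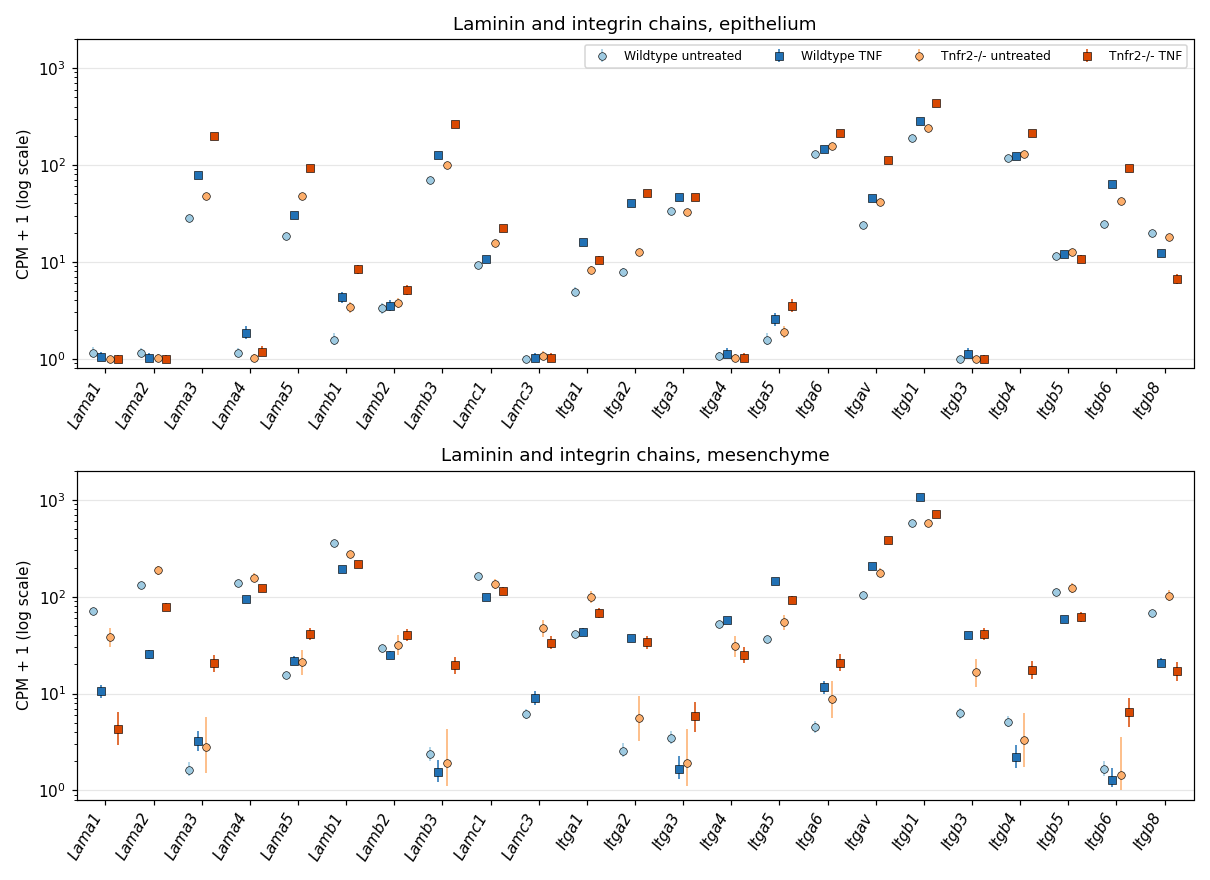
Level of the 23 chains that reached 20 CPM, as CPM + 1 on a log axis, in epithelium (top) and mesenchyme (bottom); circles are untreated and squares TNF libraries, blue wildtype and orange Tnfr2-/-, and bars are 95% counting intervals. Lama3, Lamb3, Itga6 and Itgb4 sit high in the upper panel and low in the lower one, and Lama2, Lama4 and Lamb1 the other way round. Lama1 goes with the latter in the untreated libraries and is under 20 CPM in both panels in the TNF libraries.

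The epithelial side held the laminin chains Lama3 (alpha3) and Lamb3 (beta3) together with the integrin chains Itga3, Itga6, Itgb4 and Itgb6. Lamb3 stood at 68.6, 125, 99.3 and 263 CPM in the epithelium of untreated wildtype, TNF-treated wildtype, untreated Tnfr2-/- and TNF-treated Tnfr2-/- cultures. In mesenchyme, in the same order, it stood at 1.38, 0.544, 0.919 and 18.7 CPM. The lowest epithelial value was above the highest mesenchymal one, and the share of all genes for which this held is not given here.

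Itgb4, the beta chain found with Itga6 in hemidesmosomes, stood at 117, 123, 130 and 213 CPM in epithelium and 4.14, 1.22, 2.30 and 16.6 CPM in mesenchyme. The mesenchyme of Tnfr2-/- TNF was the highest of the mesenchymal libraries for both genes. It also carried the most epithelial marker RNA: the 6 markers summed to 801 CPM there against 138 to 254 CPM in the other libraries. As a percent of the epithelial level, the 6 markers stood there at 4.06% (Epcam) to 10.3% (Krt18), with Krt8 at 5.47%. The 6 chains of the epithelial side stood at 5.99% (Itgb6) to 10.6% (Itga3), with Lamb3 at 7.10%, Itgb4 at 7.79% and Lama3 at 9.96%. Krt18 also stood at 8.79% and 10.7% in untreated and TNF-treated wildtype, where the other markers were at most 1.91%. The part of this marker RNA in the chains' mesenchymal values was not tested.

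The mesenchymal side held Lama2, Lama4, Lamb1, Lamb2 and Lamc1, the chains of several laminins made by fibroblasts, and the integrin chains Itga1, Itga4, Itga5, Itgav and Itgb5. Lamb1 stood at 354, 194, 273 and 215 CPM in mesenchyme and at 0.576, 3.29, 2.39 and 7.34 CPM in epithelium, in the same order of libraries. Lama4 stood at 137, 93.2, 156 and 122 CPM in mesenchyme and at no more than 0.846 CPM in epithelium. Neither gene overlapped between the compartments, and the share of all genes without such overlap is not given here.

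Lama5, the alpha chain of the common laminin of mature epithelial basement membranes, was found in both compartments. It was under 20 CPM in both of them in wildtype untreated, so the 2-fold rule was not applied to it. It stood at 17.3, 29.6, 46.7 and 92.5 CPM in epithelium and 14.5, 20.9, 20.2 and 40.7 CPM in mesenchyme. Epithelium was the higher in every library, and the mesenchymal level was 83.6%, 70.8%, 43.3% and 43.9% of the epithelial one.

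Joint detection was counted as the percent of cells in which every chain of a set had a UMI. Cells were thinned to 5000 UMIs each, which left out 405 shallower cells. Free RNA also gives UMIs, so the share in the other compartment is given as the background, and a limit from 0 cells bounds cells with these UMIs, not cells expressing the chains. Lama4, Lamb1 and Lamc1 were found together in 22.9%, 14.4%, 20.9% and 15.0% of thinned mesenchymal cells, in the same order, and in 0 of 1085, 873, 990 and 846 epithelial cells, which allows up to 0.276%, 0.344%, 0.303% and 0.355%. The epithelial cells so counted include only 2 of the 246 cells of Secretory-Reg4-Ang4, a class seen in wildtype TNF alone with a median of 1957.5 UMIs. Over that whole class, Lama4, Lamb1 and Lamc1 stood at 21.6, 47.1 and 25.5 CPM, from 11, 24 and 13 UMIs, and 0 of the 246 unthinned cells held all of them, which allows up to 1.22%. Lama5, Lamb1 and Lamc1 were found together in 3.46% to 9.17% of mesenchymal cells and in at most 0.118% of epithelial cells. Itga6 and Itgb4 were found together in 17.9%, 22.2%, 23.1% and 32.6% of epithelial cells and in at most 2.5% of mesenchymal cells.

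Within the epithelium, the chains were compared between the 2 largest progenitor classes of the authors' annotation, Progenitor.1 and Progenitor.2, within each library. Of 9 chains tested, 6 were at least 2-fold higher in Progenitor.2 in all 4 libraries, beside 6.52% of 5598 genes: Lama3, Lamb3, Itgav, Itgb1, Itgb4 and Itgb6. None was higher in Progenitor.1, where 8.36% of all genes were. The other 3, Itga3, Itga6 and Lama5, were higher in Progenitor.2 in every library but under 2-fold in at least 1. The median of the 9 was 2.07, 1.72, 1.53 and 1.56 on the log2 scale beside -0.08, -0.10, -0.07 and -0.15 over all genes. As the classes came from these same genes, this too is a description.

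Lama3 stood at 10.9, 23.2, 16.6 and 13.1 CPM in Progenitor.1 and at 146, 208, 175 and 228 CPM in Progenitor.2. Itgb6, which pairs with Itgav to bind and activate latent TGF-beta, stood at 12.4, 38.4, 23.4 and 22.6 CPM in Progenitor.1 and at 113, 129, 119 and 104 CPM in Progenitor.2. For both genes the classes did not overlap. The share of all genes without overlap between these classes is not given here.

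Progenitor.2 in wildtype untreated had 62 cells with a median of 15575 UMIs, the shallowest of its 4 libraries. Of 4 tested basement membrane partners, 3 passed the 2-fold rule as higher there, among them Col18a1 and Col4a2, as did 2 of 6 other integrin ligands, 2 of 7 other laminin receptors and partners, and 1 of 15 genes of the adhesion complex, beside the same 6.52% of all genes. Fn1, fibronectin, was 3.36, 4.63, 4.94 and 4.97 higher in Progenitor.2 on the log2 scale. Plec, plectin, which links Itgb4 to keratin, was 2.89, 2.48, 1.91 and 2.14 higher.

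**Figure D2:**
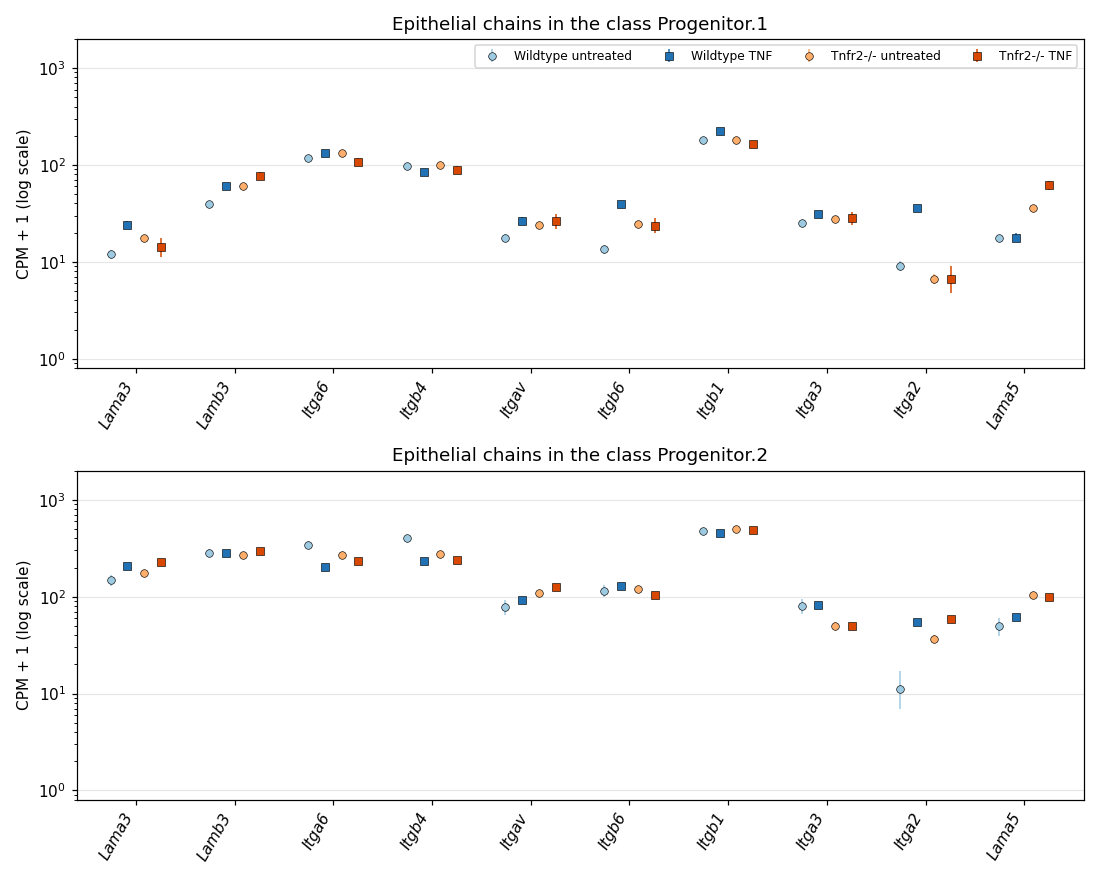
Level of 10 epithelial chains, as CPM + 1 on a log axis, in Progenitor.1 (top) and Progenitor.2 (bottom), with the symbols and counting intervals of the plot by compartment. Lama3 and Lamb3 lie between 146 and 297 CPM in Progenitor.2 and between 10.9 and 76.1 CPM in Progenitor.1.

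Of the 6 chains higher in Progenitor.2, Lamb3, Itgb1, Itgav and Itgb6 had a promoter window in the RefSeq table used here (GRCm38.p6, 250 bases before to 50 after a gene start). The windows are shown because these chains were higher together. 2 motifs were searched on both strands, chosen with these values known: GGAATG, the core bound by TEAD factors, and TGANTCA, bound by AP-1. Matches are in capitals. Of all 35 chains, 23 had a window, which is not the same set as the 23 that reached 20 CPM. Over their 26 windows, GGAATG was in 3 (11.5%), of Itga10, Itgb1 and Lamb3, beside 14.7% of all 32851 windows. TGANTCA was in 3 (11.5%), of Itga3, Itga9 and Itgax, beside 7.81%. Itga9, Itga10 and Itgax were under 20 CPM. Lamb3 and Itgb6 each have a second window, at chr1:193301744-193302043 (+) and chr2:60673644-60673943 (-), with no match to either motif. Of the windows printed, the Lamb3 one lies at chr1:193301993-193302292 (+), Itgb1 at chr8:128685404-128685703 (+), Itgav at chr2:83724147-83724446 (+) and Itgb6 at chr2:60722554-60722853 (-). A match is a stretch of letters and not a measured site.
Lamb3: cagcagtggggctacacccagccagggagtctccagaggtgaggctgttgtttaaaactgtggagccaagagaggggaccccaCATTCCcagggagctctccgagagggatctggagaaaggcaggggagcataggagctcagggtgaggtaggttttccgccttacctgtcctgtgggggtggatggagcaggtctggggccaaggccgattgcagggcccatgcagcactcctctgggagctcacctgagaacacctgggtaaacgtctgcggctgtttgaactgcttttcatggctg
Itgb1: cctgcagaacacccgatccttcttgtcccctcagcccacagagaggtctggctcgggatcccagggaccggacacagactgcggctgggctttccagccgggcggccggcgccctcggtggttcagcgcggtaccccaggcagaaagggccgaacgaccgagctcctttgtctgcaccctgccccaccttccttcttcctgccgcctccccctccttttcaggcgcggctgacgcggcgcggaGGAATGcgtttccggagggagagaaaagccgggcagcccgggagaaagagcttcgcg
Itgav: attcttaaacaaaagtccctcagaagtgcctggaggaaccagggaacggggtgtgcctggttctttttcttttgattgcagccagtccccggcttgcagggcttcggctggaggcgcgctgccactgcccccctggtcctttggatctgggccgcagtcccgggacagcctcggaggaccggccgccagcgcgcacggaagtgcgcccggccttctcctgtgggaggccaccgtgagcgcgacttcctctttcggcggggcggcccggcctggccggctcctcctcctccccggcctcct
Itgb6: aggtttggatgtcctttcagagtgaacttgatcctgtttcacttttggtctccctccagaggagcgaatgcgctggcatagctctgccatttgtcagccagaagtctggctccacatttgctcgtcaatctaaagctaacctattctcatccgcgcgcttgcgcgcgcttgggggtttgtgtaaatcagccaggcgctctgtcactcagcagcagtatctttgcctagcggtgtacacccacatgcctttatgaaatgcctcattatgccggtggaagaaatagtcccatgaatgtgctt

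With TNF, 3 chains were at least 2-fold higher in whole epithelium in both genotypes, out of 10 tested and beside 0.92% of 5545 genes: Itga2, Itgb6 and Lama3. None was lower, beside 0.0721% of all genes. Lama3 went from 27.3 to 78.3 CPM in wildtype, a log2 ratio of 1.52 (1.43 to 1.61), and from 46.9 to 196 CPM in Tnfr2-/-, a log2 ratio of 2.06 (1.99 to 2.13). Itga2, the alpha chain of a collagen receptor, went from 6.93 to 39.1 CPM and from 11.6 to 49.98 CPM. With Progenitor.1 and Progenitor.2 weighted equally, 0 of the 3 passed the rule.

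The share of Progenitor.2 among epithelial cells moved with these values, from 5.50% (4.24 to 6.99) to 23.5% (21.1 to 26.0) in wildtype and from 22.8% (20.2 to 25.5) to 83.4% (80.8 to 85.9) in Tnfr2-/-. Within Progenitor.2, the log2 ratio of TNF to untreated was 0.51 (0.33 to 0.71) and 0.39 (0.31 to 0.46) for Lama3, 0.18 (-0.03 to 0.41) and -0.19 (-0.29 to -0.10) for Itgb6, and 0.02 (-0.12 to 0.16) and 0.15 (0.08 to 0.21) for Lamb3. Itga2 stood apart from these in wildtype, where it went from 10.1 CPM (17 UMIs) to 54.0 CPM, a log2 ratio of 2.42 (1.73 to 3.20), and in Tnfr2-/- it went from 35.5 to 57.8 CPM, a log2 ratio of 0.70 (0.54 to 0.87). Within Progenitor.2, 0 of 10 chains tested passed the 2-fold rule with TNF, beside 0.417% of genes higher and 0.512% lower, and within Progenitor.1, 0 of 7 did, beside 0.286% higher and 0.286% lower. Itga6 and Itgb4 were lower with TNF within Progenitor.2, by log2 ratios of -0.77 (-0.90 to -0.63) and -0.79 (-0.91 to -0.67) in wildtype and -0.21 (-0.28 to -0.15) and -0.23 (-0.29 to -0.16) in Tnfr2-/-.

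Within Progenitor.1, the values of Itga2 and Itgb6 with TNF lay apart by genotype. In wildtype, Itga2 went from 8.11 to 34.8 CPM and Itgb6 from 12.4 to 38.4 CPM. In Tnfr2-/-, Itga2 stood at 5.69 and 5.66 CPM, under the minimum for the 2-fold rule, and Itgb6 at 23.4 and 22.6 CPM. The log2 ratios were 2.10 (1.88 to 2.33) and -0.01 (-0.62 to 0.56) for Itga2, and 1.63 (1.44 to 1.82) and -0.05 (-0.34 to 0.23) for Itgb6. With 1 library per group, the difference between genotypes was not tested.

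**Figure D3:**
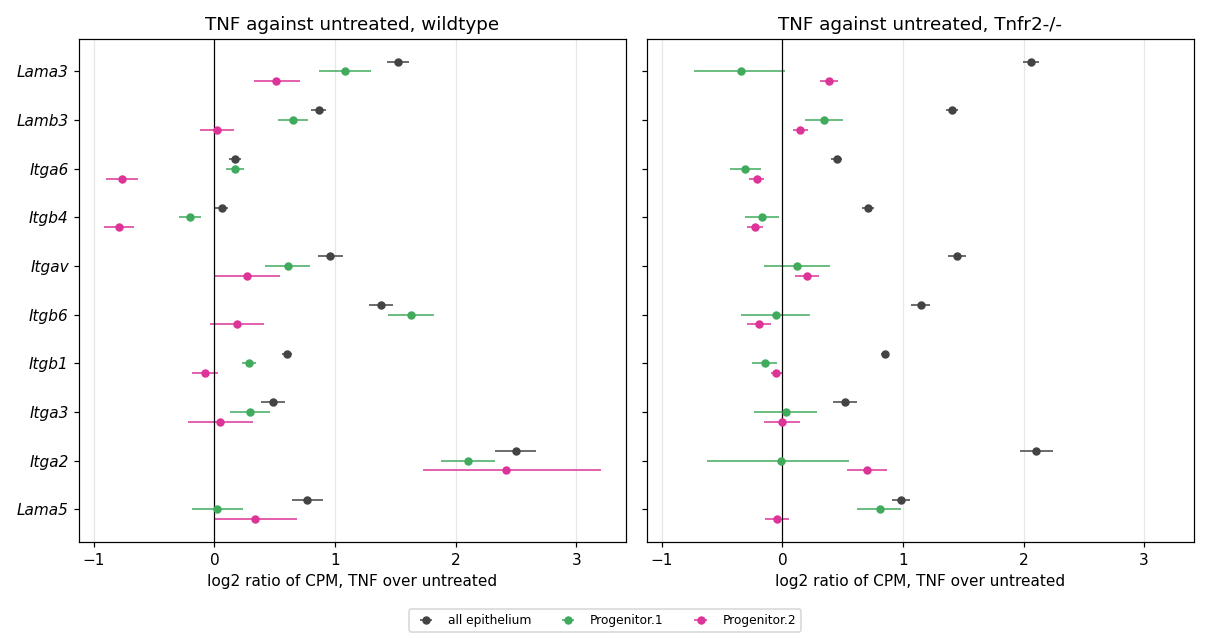
Log2 ratio of CPM, TNF over untreated, for 10 epithelial chains in wildtype (left) and Tnfr2-/- (right), over all epithelium (grey), Progenitor.1 (green) and Progenitor.2 (pink); bars are 95% counting intervals. In Tnfr2-/- the grey points of Lama3 and Lamb3 lie at 2.06 and 1.40 and the pink points at 0.39 and 0.15.

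Between genotypes, Lama5 was the only one of 9 chains tested that was at least 2-fold higher in Tnfr2-/- epithelium both without and with TNF, beside 1.13% of 5663 genes. None was lower, beside 1.41%. It went from 17.3 CPM in wildtype to 46.7 CPM in Tnfr2-/- without TNF, a log2 ratio of 1.43 (1.32 to 1.54), and from 29.6 to 92.5 CPM with TNF, a log2 ratio of 1.65 (1.55 to 1.74). Within Progenitor.1 it was again at least 2-fold higher in both pairs, beside 0.367% of genes higher and 0.647% lower, at 16.5 against 34.7 CPM and 16.8 against 60.6 CPM. Within Progenitor.2 it stood at 48.2 against 102 CPM without TNF and 61.0 against 98.9 CPM with TNF, where the ratio was under 2-fold, and 0 of 11 chains passed the rule in that class, beside 1.1% of genes higher and 1.81% lower.

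Lama5 lies on chromosome 2 (GRCm38, 180176373 to 180225859), with Itga4, Itga6, Itga8, Itgav, Itgb6 and Lamc3. The median of the 442 chromosome 2 genes tested was 0.33 and 0.12 higher in Tnfr2-/- epithelium on the log2 scale. Most chromosomes had medians between -0.02 and 0.11 without TNF and between -0.24 and -0.10 with TNF, the exceptions being chromosome 2 and chromosome 19, at 0.53 and 0.34. After the chromosome median was taken off, Lama5 was 1.05 and 1.49 higher over all epithelium. With the medians of each class taken off, it was 0.74 and 1.54 higher within Progenitor.1 and 0.80 and 0.49 higher within Progenitor.2.

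**Figure D4:**
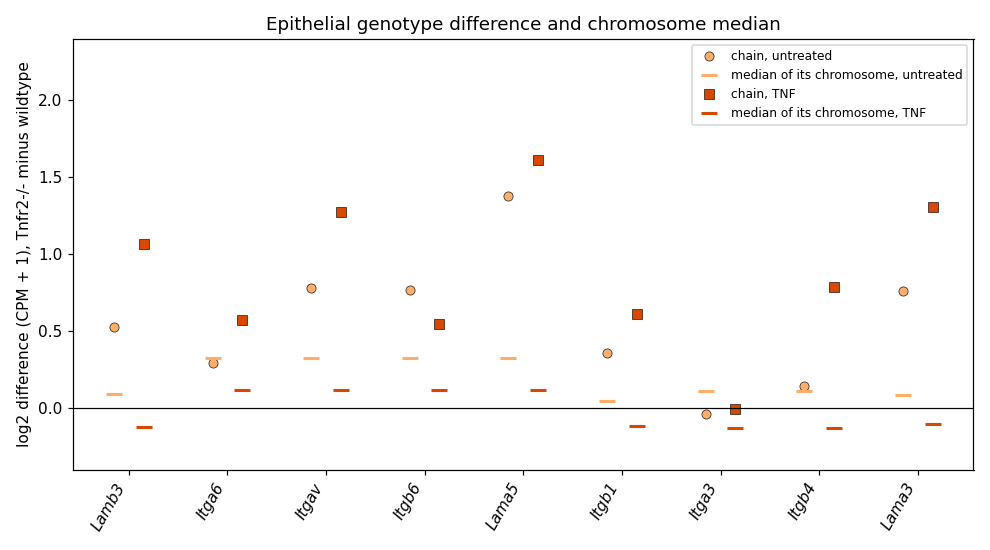
Log2 difference of CPM + 1, Tnfr2-/- minus wildtype, in epithelium for each chain tested (circles untreated, squares TNF), beside the median of all tested genes on its chromosome (short bars). Lama5 lies at 1.38 and 1.61, above the chromosome 2 medians of 0.33 and 0.12.

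In mesenchyme with TNF, 3 of 16 chains tested were at least 2-fold lower in both genotypes, beside 3.51% of 5956 genes, and 2 were higher, beside 2.77%. The lower chains were Lama1 and Lama2, laminin alpha chains, and Itgb8, which pairs with Itgav. Lama1 stood at 70.9 CPM untreated and 9.59 CPM with TNF in wildtype, and at 37.2 and 3.35 CPM in Tnfr2-/-. The log2 ratios were -2.89 (-3.14 to -2.64) and -3.47 (-4.35 to -2.69). Itgb8 went from 67.2 to 19.9 CPM and from 102 to 15.9 CPM.

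The higher chains were Itga2 and Itgb3, the latter a partner of Itgav in a receptor for fibronectin and vitronectin. Itgb3 went from 5.26 to 38.8 CPM in wildtype and from 15.6 to 40.4 CPM in Tnfr2-/-. Itga5, the alpha chain of the fibronectin receptor, went from 35.3 to 146 CPM and from 53.7 to 91.0 CPM. Over all mesenchyme it was over 2-fold in wildtype alone. Of 16 other integrin ligands tested, 6 passed the 2-fold rule as lower, beside 3.51% of genes, and 1 as higher, beside 2.77%. The lower ones included the fibrillar collagens Col1a1, Col1a2 and Col3a1, with Col1a1 at -2.45 and -2.29. The higher one was Spp1, osteopontin, at 2.36 and 2.45. These ligand values are given over all mesenchyme only.

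The mesenchymal classes changed with treatment. Mesenchyme-Ptges held 2.38% of mesenchymal cells in wildtype untreated, 99.3% in wildtype TNF, 41.1% in Tnfr2-/- untreated and 100% in Tnfr2-/- TNF, so over all mesenchyme the class and the treatment cannot be told apart. Within Mesenchyme-Ptges, Lama1 and Itgb8 were again lower in both genotypes, beside 1.39% of 5809 genes, and Itga2 and Itgb3 higher, beside 1.67%. Lama2 was not among them: its log2 ratio was -2.81 (-3.21 to -2.39) in wildtype and -0.20 (-0.56 to 0.18) in Tnfr2-/-. Itga5 was under 2-fold in both genotypes within the class. Its log2 ratio was 0.69 (0.18 to 1.25) in wildtype and 0.995 (0.51 to 1.51) in Tnfr2-/-. Over the 16 chains tested in the class, the median log2 difference was -0.98 in wildtype and 0.09 in Tnfr2-/-. Over all genes it was 0.21 and -0.06. The wildtype untreated side of these values is 34 cells with a median of 5755 UMIs. Itga2 rests there on 1 UMI, which gives its log2 ratio a range of 1.16 to 8.95. Itgb3 rests on 6 UMIs there and 8 in Tnfr2-/- untreated, and its wildtype log2 ratio of 1.15 has a range of 0.02 to 2.61.

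**Figure D5:**
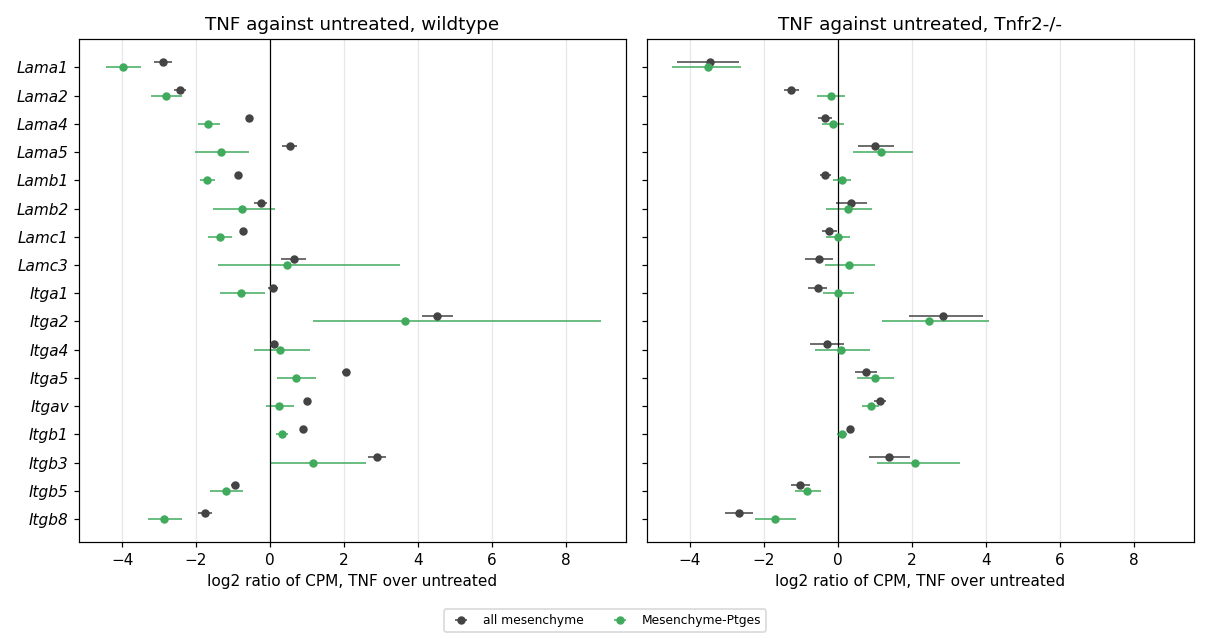
Log2 ratio of CPM, TNF over untreated, for 17 mesenchymal chains in wildtype (left) and Tnfr2-/- (right), over all mesenchyme (grey) and Mesenchyme-Ptges (green); bars are 95% counting intervals. Lama1 lies between -3.98 and -2.89 in all 4 cases, and Lama2 within Mesenchyme-Ptges at -2.81 in wildtype and -0.20 in Tnfr2-/-.

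Between genotypes in mesenchyme, Lamc3, a gamma chain, was at least 2-fold higher in Tnfr2-/- in both pairs, the only one of 13 chains tested and beside 1.67% of 5935 genes; none was lower, beside 1.40%. It stood at 5.17, 8.09, 46.4 and 32.5 CPM in the usual order of libraries, and both Tnfr2-/- libraries were above both wildtype libraries. Like Lama5, it lies on chromosome 2, whose median was raised in Tnfr2-/- epithelium. No chromosome median is given for mesenchyme, so none was taken off. Within Mesenchyme-Ptges Lamc3 stood at 5.84, 8.07, 26.4 and 32.5 CPM, the first from 2 UMIs, and passed the rule there beside 3.03% of genes. Itga4, which with Itgb1 binds Vcam1 and fibronectin, stood at 51.8 and 55.9 CPM in wildtype and 29.9 and 24.1 CPM in Tnfr2-/-, and was over 2-fold lower with TNF. Within Mesenchyme-Ptges it was at least 2-fold lower in both pairs, beside 2.04% of genes, at 46.7 against 22.8 CPM and 56.0 against 24.1 CPM. The first log2 ratio had a range of -2.07 to 0.02 and rests on 16 wildtype UMIs. Its log2 difference of -1.002 lay near the median of -0.95 over the 13 chains tested in that pair, of which 11 were below 0. Of 8 tested basement membrane partners, 1 was higher in Tnfr2-/- by the 2-fold rule over all mesenchyme, beside the same 1.67% of genes, and none was lower. It was Nid1, nidogen, which binds laminin gamma chains, at 1.16 and 1.45 higher on the log2 scale. The median of the 8 was 0.18 and 0.39. These values are over all mesenchyme, whose class shares differed between genotypes.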

How the data were processed

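The deposited matrix holds UMI counts per gene and cell from 10x 3' libraries, which the authors made with Cell Ranger and loaded in monocle3; cells with few UMIs were filtered by the authors, whose methods also describe the removal of doublets of epithelial and mesenchymal cells; 35 cells without a class, most with UMIs of both compartments' beta chains, remain in the deposited table; no doublet caller was run here. Cell Ranger 5.0.0 and the build mm10 are named in the submitters' processing notes; the annotation release is not given in the sources used here. Classes are the authors' Leiden clusters. No column without a sample was used (0 such columns).

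UMIs were summed per class or compartment and library and scaled to CPM. Differences are log2 of (CPM + 1); a gene was tested with 20 CPM in 1 library of each pair and counted at 2-fold in the same direction in every pair. Classes needed 20 cells in a library. Ratios and their intervals are exact and without pseudocount, levels carry exact Poisson and shares exact Clopper-Pearson intervals at 95%, and a sum of 0 carries a limit of 3 counts. Intervals cover counting error only. The steps were tested on simulated data with counting error only, where 197 to 200 of 200 changed genes were recovered. Those genes stood above the 20 CPM minimum and changed by more than 2-fold alike in every pair, so recovery was nearly assured. The simulation does not cover variation between libraries or chains near the minimum. The chains, companion lists, motifs and comparisons were chosen with earlier results of these data known. 1 chain found by symbol is not reported here. Named genes are all other chains, plus at most 6 companion genes per comparison that passed the 2-fold rule. Alternatives were other pseudocounts, scalings, minimums, depths and class weights. R 4.3.3, edgeR 4.0.16 (TMM factors only) and Python were used. Positions came from GENCODE M21 (GRCm38), which matched 30317 identifiers.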

Additional observations from a re-analysis of the deposited data

Results flagged for a closer look

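Several chains moved in opposite directions between genotypes or treatments, each beyond its counting interval; these differences were not tested, since each group is 1 library. Pairs of this kind numbered 14 at any size, and the 5 below are those with at least 0.5 on the log2 scale on both sides, a size chosen after the values had been seen. In all mesenchyme, Itga5 was 0.59 higher in Tnfr2-/- without TNF and -0.67 with TNF, while within Mesenchyme-Ptges both differences had the same sign, at -0.97 and -0.68. In Progenitor.1, Itgb6 was 0.87 and -0.74. In Mesenchyme-Ptges, Lama2 was -0.95 and 1.62 and Lama5 was -1.49 and 0.93, as Tnfr2-/- minus wildtype without and with TNF. Lama5 there was also -1.30 with TNF in wildtype and 1.13 in Tnfr2-/-. The Mesenchyme-Ptges values rest on 34 wildtype untreated cells, with 18 UMIs of Lama5. Most chains shifted alike in this class. Without TNF, 11 of the 13 chains tested were lower in Tnfr2-/-, with a median of -0.95 beside 0.04 over all genes. With TNF, the median of the 13 was 0.39 beside -0.19 over all genes.

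The 35 cells without a class, 31 of them in wildtype untreated, entered no comparison. After thinning, 14.3% (4.81 to 30.3) of them held a UMI of both Lamb3, the epithelial beta chain, and Lamb1, the mesenchymal one, against 0.738% of epithelial and 0.416% of mesenchymal cells. Without thinning the shares were 82.9%, 3.7% and 2.31%. Whether these cells are doublets left in the table was not tested. Their median was 66566 UMIs in wildtype untreated and 88648 in Tnfr2-/- untreated.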

How the results depend on the processing

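Of 124 counts of chains past the 2-fold rule under an alternative, 119 stayed within 1.5 times. With TNF in epithelium, the 3 higher chains became 2 with a pseudocount of 10 CPM and 0 with Progenitor.1 and Progenitor.2 weighted equally. That weighting also turned Itgb6 in Tnfr2-/- to -0.17, and it was the only sign turned among 329 values of 32 results. Those 32 had been picked for passing the 2-fold rule, so few signs could turn. In mesenchyme with TNF, the 2 higher chains became 1 with a pseudocount of 10 CPM and 4 with no minimum. Between genotypes in mesenchyme, 2 chains were higher with no minimum and 1 was lower with equal weights. Keeping cells low in the other compartment's markers, or leaving out Secretory-Reg4-Ang4, both chosen after seeing the data, left every count within 1.5 times. The median of all genes in a pair lay between -0.20 and 0.21 with UMI totals, the highest in wildtype Mesenchyme-Ptges with TNF. Unthinned shares are higher: Lamb3 in Progenitor.2 of wildtype untreated goes from 71.4% to 91.9%. No paired analysis was possible because each group is 1 library with no replicate number, and for the same reason no replicate could be left out.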

Other observations

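Among epithelial classes outside the progenitors, the absorptive cells of wildtype untreated held Lama3 and Lamb3 at 51.1 and 115 CPM. In the class Secretory-Reg4-Spdef-Lyz1 of the same library they stood at 0.705 and 21.5 CPM. In the mesenchyme of wildtype untreated, Lama1 stood at 87.4 CPM in Mesenchyme-Ifitm1 and 35.2 CPM in Mesenchyme-generic, and Lama4 at 166 and 72.1 CPM.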
